A study of Mus musculus with 6 samples.

Results

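The genes described here are the netrins, semaphorins, ephrins and Slits and their receptors, the classical axon guidance genes. Membership was set by gene symbol, though the set was chosen with earlier results of these data known. Of the 21652 genes in the count table, 72 matched. The set holds 37 ligand and 35 receptor genes in 13 families. Of the 72, 54 had enough counts to be tested, against 12782 tested genes in all.

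Ribosome-protected fragments (footprints) were sequenced from MIN6 cells, a mouse pancreatic beta-cell line, in 3 libraries with the sgLTN1 guide and 3 with the sgNT guide. LTN1 is the E3 ubiquitin ligase listerin, which marks nascent chains on stalled ribosomes for degradation. The labels give no other difference in treatment or time between the groups, and they give one batch entry to all 6 libraries. Whether same-group libraries came from separate cultures or clones is not stated, and p-values therefore reflect only how far these libraries spread, which may be technical.

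Guidance cues were named for steering growing axons. Netrins act through DCC, neogenin and UNC5 receptors, Slits through ROBO receptors, and semaphorins through plexins, often with a neuropilin as co-receptor. Ephrins are anchored to the cell surface and bind Eph receptor kinases on the neighbouring cell, and both partners can signal. The same molecules act between cells outside the nervous system: in mouse islets, ephrin-A and EphA proteins on touching beta cells are known to modulate insulin secretion, and Slit and Robo genes are known for a part in islet architecture and beta-cell survival.

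Library totals were 11198735, 9683201 and 4993245 counts with sgLTN1, against 4373467, 7802364 and 4479680 with sgNT. Ltn1 itself had 65.3, 71.5 and 64.9 CPM (counts scaled to a common library size with TMM factors) in the sgLTN1 libraries, against 143, 145 and 141 in the sgNT libraries. Its log2 fold change of -1.09 (SE 0.07, adjusted p = 9.24e-05 by edgeR's quasi-likelihood test and the Benjamini-Hochberg method) lies in the direction of the labels. All 12 beta-cell markers looked for had counts, summing to 93131 to 114650 CPM with sgLTN1 and 94921 to 105376 CPM with sgNT. Slc2a2, the glucose transporter of mouse beta cells, had at most 1.52 CPM in any library. Footprints measure mRNA amount and ribosome density together, and with no RNA libraries used here the 2 cannot be told apart.

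Footprints on Ntn1, which encodes netrin 1, fell with sgLTN1, and those on Sema3g lay lower by a wider margin but just missed the threshold. Of the 54 tested members, Ntn1 passed an adjusted p of 0.05, where 0.180% of all tested genes did (23 of 12782); that call did not survive leaving out any of 4 single libraries. At an unadjusted p under 0.05, 4 members were higher with sgLTN1 (7.41%, against 8.00% of all tested genes): Plxnb2, Sema6d, Sema3a and Neo1. A further 5 were lower (9.26%, against 7.56%): Ntn1, Sema3g, Nrp1, Ephb4 and Slit2. Both shares lie near the background. Total-count scaling moved members and background alike: 1 member was higher (1.85%, against 3.50% of tested genes) and 8 were lower (14.8%, against 13.4%). In 7 members all sgLTN1 libraries lay above all sgNT libraries (13.0%, against 10.1% of tested genes), and in 3 members they lay below (5.56%, against 10.1%). With total-count scaling these became 3 and 5, where 5.09% and 16.4% of tested genes lay so. The median log2 fold change of the members was 0.04, with 29 above 0, beside a median of -0.02 over all tested genes, 47.3% of which lay above 0. Total-count scaling put these medians at -0.03 and -0.09.

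**Figure D1:**
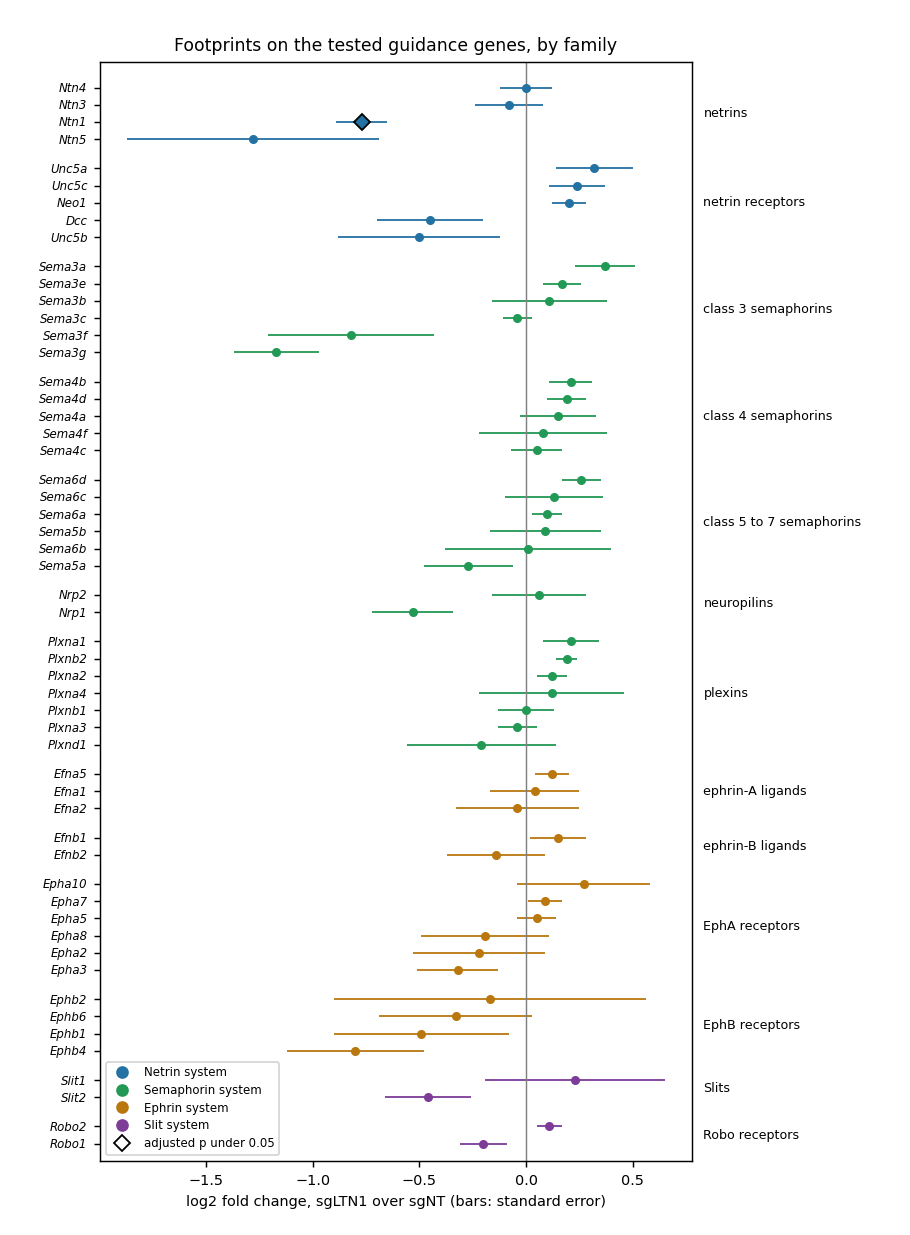
Log2 fold change of each tested guidance gene, sgLTN1 over sgNT (horizontal axis), by family (vertical axis); bars are standard errors from the fit and colours mark the 4 ligand-receptor systems. Most points lie within 0.5 of zero. Ntn1, at -0.77, is the diamond that marks an adjusted p under 0.05. Ntn5, Sema3g, Sema3f and Ephb4 lie further left with wider bars.

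Among the netrins, the secreted cue Ntn1 (ENSMUSG00000020902.13), the founding axon attractant of the family, had 13.5, 13.9 and 14.8 CPM with sgLTN1 and 25.9, 25.1 and 20.1 CPM with sgNT. The groups did not overlap, and the 3 sgLTN1 libraries lay closer together than the 3 sgNT libraries. Mean levels were 14.0 ± 0.684 and 23.7 ± 3.17 CPM (SD, n = 3 each), a log2 fold change of -0.77 (SE 0.12, 95% interval -1.03 to -0.51) and edgeR's adjusted p was 0.0355. The counts behind it were 149, 128 and 72 with sgLTN1, against 113, 203 and 93 with sgNT. The call was lost without sgNT library 1 (-0.70, adjusted p = 0.105), sgNT library 2 (-0.71, 0.126), sgLTN1 library 1 (-0.74, 0.234) or sgLTN1 library 2 (-0.75, 0.306), while the fold change stayed between -0.86 and -0.70 in all 12 alternatives run.

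The other tested netrins showed no such difference. Ntn4, a laminin-binding netrin of basement membranes, had 48.0, 42.7 and 46.8 CPM with sgLTN1 and 41.9, 40.6 and 56.3 CPM with sgNT. Ntn3 had 28.6, 30.0 and 39.5 CPM with sgLTN1 and 38.7, 26.7 and 38.0 CPM with sgNT. In both genes the groups overlapped, and the log2 fold changes were -0.00 (SE 0.12) and -0.08 (SE 0.16). Ntn5 had 3.07, 4.02 and 5.34 CPM with sgLTN1 and 10.5, 1.98 and 18.8 CPM with sgNT, so that its log2 fold change of -1.28 (SE 0.59, adjusted p = 0.329) rests on 2 of the 3 sgNT libraries. Without sgNT library 3 it was -0.46, and without sgNT library 2 it was -1.88 (adjusted p = 0.0527). Ntn5 overlaps the gene Sec1 in the RefSeq annotation, and whether the counting used strand is not given, so reads of the 2 genes may not be told apart.

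The netrin receptors split in sign. Neo1 (neogenin, which also binds repulsive guidance molecules) had 565, 598 and 489 CPM with sgLTN1 and 511, 495 and 437 CPM with sgNT. Within each group library 3 was the lowest, and the groups overlapped. Its log2 fold change was 0.20 (SE 0.08, adjusted p = 0.291), and 0.09 once the trend of fold change with abundance had been removed. The repulsive receptors Unc5a (0.32, SE 0.18, adjusted p = 0.421) and Unc5c (0.24, SE 0.13, adjusted p = 0.408) also lay above 0, while Dcc (-0.45, SE 0.25, adjusted p = 0.427) and Unc5b (-0.50, SE 0.38, adjusted p = 0.578) lay below. For Dcc, which mediates attraction to netrin 1, the levels were 3.70, 5.21 and 4.11 CPM with sgLTN1, against 5.96, 4.45 and 7.98 CPM with sgNT.

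**Figure D2:**
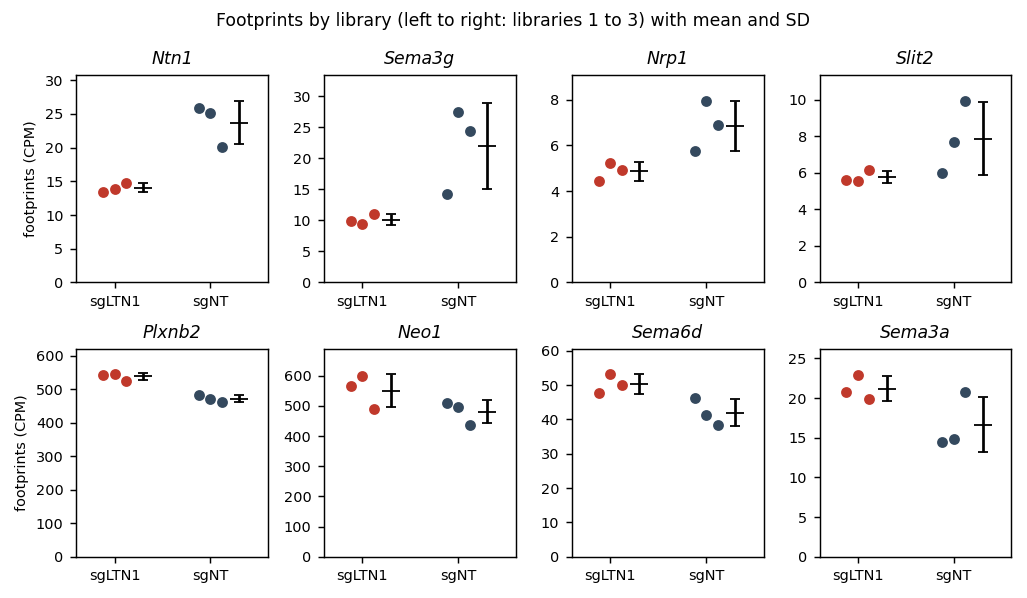
Footprints in CPM (vertical axis, from 0) of 8 guidance genes in each library, sgLTN1 left of sgNT; points are libraries 1 to 3 from left to right and the bars give mean and SD of the 3. Ntn1, Sema3g and Nrp1 show sgLTN1 points below all sgNT points, Plxnb2 and Sema6d show them above, and the groups of Slit2, Neo1 and Sema3a overlap.

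Class 3 semaphorins are secreted. Sema3g (ENSMUSG00000021904.7) had 9.84, 9.45 and 11.1 CPM with sgLTN1 and 14.2, 27.5 and 24.4 CPM with sgNT. The groups did not overlap, with sgNT library 1 nearest to the sgLTN1 values. The log2 fold change of -1.17 (SE 0.20, 95% interval -1.62 to -0.73) missed the threshold, with an adjusted p of 0.0565 from edgeR. It passed in 7 of the 12 alternatives, with DESeq2 (-1.14, adjusted p = 0.000811) and without sgNT library 1 (-1.36, adjusted p = 0.00576) among them. Over all 12 the adjusted p ran between 0.000305 and 0.349.

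Sema3a, the collapsin that repels axons through neuropilin 1, had 20.8, 22.9 and 19.9 CPM with sgLTN1 and 14.4, 14.8 and 20.7 CPM with sgNT. Library 3 of sgNT lay among the sgLTN1 values, and the log2 fold change was 0.37 (SE 0.14, adjusted p = 0.23). Sema3c had 78.1, 80.2 and 77.9 CPM with sgLTN1 against 83.9, 77.4 and 82.0 CPM with sgNT (log2 fold change -0.04, SE 0.07, 95% interval -0.19 to 0.11). Sema3e, a ligand that binds plexin D1 without a neuropilin, had 41.3, 42.5 and 36.0 CPM with sgLTN1 against 35.8, 35.8 and 35.6 CPM with sgNT, which did not overlap (0.17, SE 0.09, adjusted p = 0.387). Sema3f, at 1.53, 0.869 and 2.26 CPM with sgLTN1 against 3.44, 2.60 and 1.73 CPM with sgNT, had a log2 fold change of -0.82 (SE 0.39, adjusted p = 0.340). The class thus held 3 members above 0 and 3 below, with a median log2 fold change of 0.03.

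The membrane-anchored semaphorins lay mostly above 0. All 5 tested class 4 genes had a positive log2 fold change, with a median of 0.15, and 4 of the 5 under total-count scaling. Of the 6 tested genes of classes 5 to 7, 5 lay above 0, with a median of 0.10. No member of either group passed the adjusted threshold. Sema6d, a transmembrane semaphorin that binds plexin A1, had 47.6, 53.3 and 49.9 CPM with sgLTN1 and 46.3, 41.2 and 38.4 CPM with sgNT. These did not overlap (0.26, SE 0.09, adjusted p = 0.206). Sema4d, a ligand of plexin B1, had 36.4, 37.8 and 38.8 CPM with sgLTN1 and 35.1, 31.0 and 33.4 CPM with sgNT (0.19, SE 0.09, adjusted p = 0.326). These did not overlap either. Sema4b (0.21, SE 0.10, adjusted p = 0.342) and Sema6a (0.10, SE 0.07, adjusted p = 0.510) had overlapping groups, and Sema5a was the 1 member of these classes below 0 (-0.27, SE 0.21, adjusted p = 0.576).

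Plexins are the signalling receptors of semaphorins. Plxnb2 (ENSMUSG00000036606.18), a receptor for class 4 semaphorins, had 544, 547 and 526 CPM with sgLTN1 and 483, 473 and 461 CPM with sgNT. The groups did not overlap and differed by 1.14-fold, and each varied by little (539 ± 11.2 and 472 ± 10.6 CPM, SD, n = 3 each). The log2 fold change was 0.19 (SE 0.05, adjusted p = 0.152 from edgeR), and 0.08 with the abundance trend removed. Plxna1 had 22.9, 23.1 and 24.0 CPM with sgLTN1 against 22.7, 21.8 and 15.3 CPM with sgNT (0.21, SE 0.13, adjusted p = 0.465). Plxna2 had 54.9, 53.6 and 51.6 CPM with sgLTN1 against 50.0, 48.0 and 49.6 CPM with sgNT (0.12, SE 0.07, adjusted p = 0.458). These too did not overlap, which makes 3 of the 7 tested plexins, beside 10.1% of all tested genes; over all members such cases numbered 7, and 3 under total-count scaling. Plxna3 (-0.04, SE 0.09) and Plxnb1 (-0.00, SE 0.13) had overlapping groups.

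The plexin footprints summed to 691, 686 and 669 CPM with sgLTN1, against 626, 610.0 and 594 CPM with sgNT, a difference carried mainly by Plxnb2. Neuropilin 1 (Nrp1), which also serves VEGF as a co-receptor, had 4.42, 5.21 and 4.93 CPM with sgLTN1 and 5.73, 7.92 and 6.90 CPM with sgNT. It did not overlap (-0.53, SE 0.19, adjusted p = 0.211), on 121 counts in each group. Nrp2 did (0.06, SE 0.22, adjusted p = 0.939).

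The ephrins varied little between the groups. Efna5, the ephrin-A of beta-cell contacts, had 58.8, 61.2 and 55.3 CPM with sgLTN1 and 54.8, 57.6 and 49.2 CPM with sgNT (0.12, SE 0.08, 95% interval -0.07 to 0.30). Efnb1 had 14.0, 16.0 and 11.9 CPM with sgLTN1 against 12.8, 13.4 and 11.9 CPM with sgNT (0.15, SE 0.13). In both genes the groups overlapped. The other tested ephrins, Efna1, Efna2 and Efnb2, had log2 fold changes of 0.04, -0.04 and -0.14 with standard errors of 0.21 to 0.29.

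EphA receptors likewise showed no called difference, with 3 of 6 above 0 and a median of -0.07. Epha7 had 81.2, 87.8 and 72.3 CPM with sgLTN1 and 74.7, 77.3 and 76.2 CPM with sgNT (0.09, SE 0.08, 95% interval -0.09 to 0.27). Epha5, the receptor paired with ephrin-A5 on beta cells, had 61.0, 62.8 and 54.0 CPM with sgLTN1 and 62.3, 58.9 and 51.3 CPM with sgNT (0.05, SE 0.09, 95% interval -0.16 to 0.25). In both genes the groups overlapped. Epha3 had the lowest fold change of the family (-0.32, SE 0.19, adjusted p = 0.445).

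All 4 tested EphB receptors, which bind ephrin-B ligands, had negative log2 fold changes (median -0.41, and -0.25 with the abundance trend removed). They stayed so under each of the 5 other scalings, filters and blocks, which reuse the same 6 libraries. The sign of Ephb2 turned with some single libraries left out, as given below. None of the 4 passed the adjusted threshold with all 6 libraries. Ephb4, known for its part in vein identity, had 1.99, 4.23 and 3.08 CPM with sgLTN1 and 3.44, 6.43 and 5.61 CPM with sgNT. These overlapped (-0.80, SE 0.32, adjusted p = 0.259), on 76 counts with sgLTN1 and 93 with sgNT. Ephb1 (-0.49, SE 0.41) and Ephb6 (-0.33, SE 0.36) rested on 32 to 43 counts a group.

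Ephb2 (ENSMUSG00000028664.15) varied more within the groups than between them. It had 8.76, 12.8 and 98.2 CPM with sgLTN1 and 63.7, 28.1 and 30.4 CPM with sgNT, from 97, 118 and 478 counts against 278, 227 and 141. The highest and the 2 lowest libraries were all sgLTN1. The log2 fold change was -0.17 (SE 0.73, adjusted p = 0.946), while leaving out sgNT library 1 gave 0.29, and leaving out single sgLTN1 libraries gave 0.39 (library 1), 0.32 (library 2) and -1.88 with an adjusted p of 0.0170 (library 3). Its within-group SD of 1.38, on the scale of log2(CPM + 0.5), exceeded that of 99.9% of tested genes.

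A set of other genes ran the same way across the 6 libraries. They were chosen for their Pearson correlation with Ephb2 over these same libraries, among 395 genes that varied widely. It was 0.989 to 0.993 for the 3 genes given here. The olfactory receptor gene Or2y15 had 3.61, 8.90 and 84.7 CPM with sgLTN1 and 49.5, 18.2 and 22.2 CPM with sgNT. Il27ra, a cytokine receptor gene, had 3.97, 5.21 and 58.4 CPM with sgLTN1 and 25.9, 15.5 and 15.7 CPM with sgNT. Dscaml1, an adhesion molecule gene of neurons, had 20.2, 26.7 and 113 CPM with sgLTN1 and 92.8, 38.6 and 45.9 CPM with sgNT. In each of the 3 genes sgLTN1 library 3 was highest and sgNT library 1 came next, an order that follows from how they were chosen. The 1194 listed olfactory receptor genes summed to 518, 546 and 1011 CPM with sgLTN1 and 893, 658 and 763 CPM with sgNT, and the 3 libraries with the lowest totals were the 3 with the highest sums. The part that depth or these transcripts have in the Ephb2 values was not tested. In the RefSeq annotation Ephb2 overlaps the long noncoding genes Gm52708 and Gm31536.

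**Figure D3:**
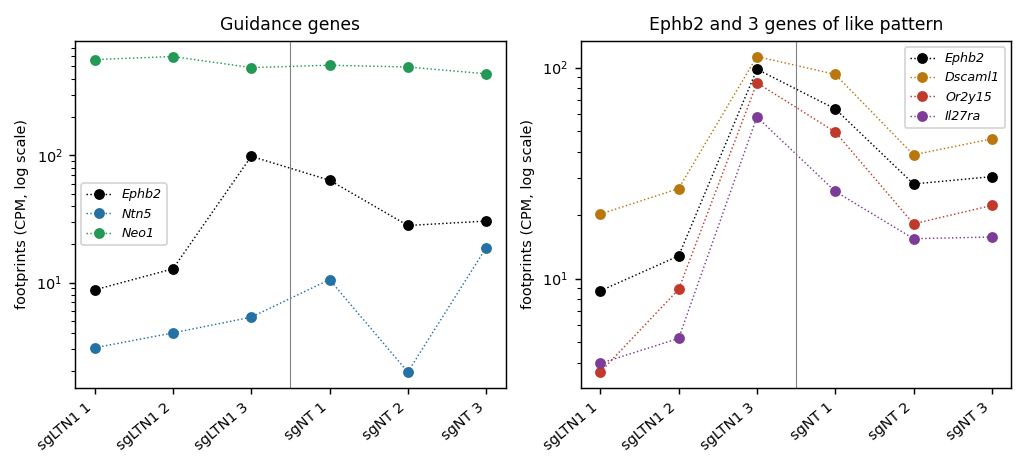
Footprints in CPM (vertical axes, log scale) across the sgLTN1 and then the sgNT libraries (horizontal axes); points are single libraries and dotted lines only join a gene's points. On the left Ephb2 spans 8.76 to 98.2 CPM while Neo1 stays between 437 and 598. On the right Dscaml1, Or2y15 and Il27ra, chosen for their correlation with Ephb2 over these libraries, run with it, highest in sgLTN1 library 3.

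Of the Slits, Slit2 had 5.60, 5.54 and 6.16 CPM with sgLTN1 and 5.96, 7.67 and 9.92 CPM with sgNT. The groups overlapped by 1 library (-0.46, SE 0.20, adjusted p = 0.294). Slit1 was at 1.09 to 2.05 CPM with sgLTN1 and 0.647 to 1.83 CPM with sgNT (0.23, SE 0.42, adjusted p = 0.850). The Slit receptor Robo2 had 145, 142 and 139 CPM with sgLTN1 and 139, 131 and 125 CPM with sgNT, which narrowly did not overlap (0.11, SE 0.06, adjusted p = 0.452). Robo1 had 25.1, 23.5 and 19.7 CPM with sgLTN1 and 26.8, 27.7 and 24.6 CPM with sgNT (-0.20, SE 0.11, adjusted p = 0.411). The 2 Robo genes thus lay on opposite sides of 0, and neither passed the test.

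By kind of ligand, 4 of the 12 tested secreted ligands lay above 0 with a median log2 fold change of -0.06, and 13 of the 16 tested membrane-bound ligands did with a median of 0.10. Of the 26 tested receptors 12 lay above 0, with a median of -0.02. Sorted by abundance, members of at least 64 CPM lay above 0 in 6 of 7 cases with a median of 0.11, beside 65.1% and a median of 0.07 for all 2031 genes of that abundance. Those between 16 and 64 CPM did in 11 of 20 cases (median 0.05), beside 49.1% and -0.00 for all 3772 such genes. Members between 4 and 16 CPM lay above 0 in 4 of 11 cases with a median of -0.27, beside 42.0% and -0.05 for all 4660 such genes. Under 4 CPM it was 8 of 16 cases (median -0.02), beside 39.5% and -0.10 for all 2319 such genes.

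**Figure D4:**
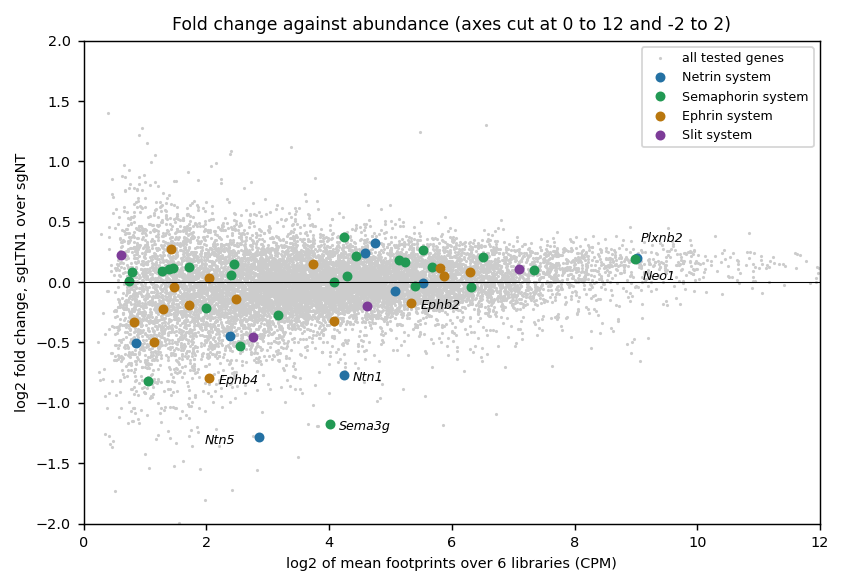
Log2 fold change, sgLTN1 over sgNT (vertical axis), against the log2 of mean CPM over the 6 libraries (horizontal axis); grey dots are tested genes, 34 of which lie outside the axes, and coloured dots are the guidance genes by ligand-receptor system. The cloud widens to the left; Ntn1 and Sema3g lie at its lower edge, and Plxnb2 and Neo1 lie with the most abundant genes, slightly above 0.

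Beyond the members, a list of 65 genes linked to guidance receptor signalling (adaptors, collapsin response mediators, MICAL oxidases and further ligands among them) had 54 tested genes. Not all of them act downstream of the receptors. None of the 54 passed the adjusted threshold, with 31 above 0 and a median of 0.02; at an unadjusted p under 0.05, 3 were higher and 3 lower (5.56% each, against 8.00% and 7.56% of all tested genes). Mical3, which encodes an actin-oxidising enzyme of the family that binds plexins, had 33.1, 34.7 and 33.7 CPM with sgLTN1 and 27.5, 27.2 and 21.4 CPM with sgNT (0.41, SE 0.10, adjusted p = 0.126). Dpysl2, a microtubule-binding mediator of semaphorin 3A signalling, had 383, 378 and 387 CPM with sgLTN1 and 438, 435 and 437 CPM with sgNT (-0.19, SE 0.05, adjusted p = 0.150). Ablim1, an actin-binding protein gene, had 5.87, 6.52 and 7.60 CPM with sgLTN1 and 3.67, 4.70 and 4.75 CPM with sgNT (0.56, SE 0.19, adjusted p = 0.206). In Mical3, Dpysl2 and Ablim1, picked for their small p, the groups did not overlap. Among all tested genes 10.1% lay higher without overlap and 10.1% lower.

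Flrt2, whose product is a ligand of UNC5 receptors, had 34.3, 2.82 and 3.70 CPM with sgLTN1 and 3.44, 3.22 and 3.45 CPM with sgNT. The value of sgLTN1 library 1 stood alone, and without it the log2 fold change was -0.08 in place of 2.16 (SE 0.87, adjusted p = 0.266).

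The 18 members left out of the test had 7 to 64 counts over the 6 libraries together and at most 17 in one library. They were Ntng1, Ntng2, Unc5d, Sema3d, Sema4g, Sema7a, Plxnb3, Plxnc1, Efna3, Efna4, Efnb3, Epha1, Epha4, Epha6, Ephb3, Slit3, Robo3 and Robo4. Fitted without the filter on low counts, none of the 18 passed the threshold, and the lowest adjusted p was 0.483 for Ephb3 (-0.84, SE 0.45). Robo4 is an endothelial member of its family. The endothelial markers looked for summed to 5.54 to 8.63 CPM with sgLTN1 and 4.33 to 7.12 CPM with sgNT. The fibroblast markers summed to 11.6 to 15.8 CPM with sgLTN1 and 14.7 to 16.2 CPM with sgNT.

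Of 9 neuron markers looked for, 7 were tested and 6 of these lay below 0, with a median log2 fold change of -0.12; none passed the adjusted threshold. Their sum of 3208 to 3233 CPM with sgLTN1 and 2980 to 3084 CPM with sgNT was set mainly by the synaptic vesicle gene Syp, which lay the other way (0.16, SE 0.05, adjusted p = 0.168). Snap25, which encodes a membrane fusion protein used in neurons and beta cells, had 53.4, 54.8 and 62.7 CPM with sgLTN1 and 66.7, 66.8 and 81.8 CPM with sgNT (-0.34, SE 0.10, adjusted p = 0.162). Elavl4, a neuronal RNA-binding protein gene, had 38.8, 39.5 and 40.5 CPM with sgLTN1 and 46.8, 45.6 and 45.1 CPM with sgNT (-0.21, SE 0.08, adjusted p = 0.214). In these 3 genes, singled out after their values were seen, the groups did not overlap. Nor did they in Nefl, which lay lower with sgLTN1 (log2 fold change -0.12, SE 0.06). Of all tested genes, 10.1% lay higher without overlap and 10.1% lower. The part of the neuron markers in the values of the guidance genes was not tested.

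In the authors' deposited table of DESeq2 results, 10 of the members carry an adjusted p, none below 0.05, and the lowest is 0.0508 for Plxnb2. That table gives Ntn1 a log2 fold change of -0.74 with an unadjusted p of 7.81e-05 and Sema3g -1.13 with 1.43e-06, both without an adjusted value. The signs in the authors' deposited table matched those of the fit described here in 50 of the 54 tested members.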

How the data were processed

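The authors deposited whole-number read counts per gene for 6 libraries and a table with the columns of DESeq2: per the file headers, a mean normalized count (signal), log2 fold change and standard error, Wald statistic (score), p-value and adjusted p-value. The tools named in the submitters' processing notes are STAR 2.7.11a, Bowtie2 2.5.4, featureCounts 2.12.3, fastp 0.23.4, SAMtools 1.9, UMI-tools 1.1.2 and DESeq2 1.38.3, with build GRCm39. Not given in the sources used here are strand setting, annotation and footprint filters, so overlapping genes and close paralogues may share reads.

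Counts were fitted in R 4.3.3 with edgeR 4.0.16 (filterByExpr, TMM factors 0.954 to 1.04, quasi-likelihood test, Benjamini-Hochberg over 12782 genes, threshold 0.05), after a check on simulated data. Fold changes are sgLTN1 over sgNT, and intervals are 95%. Alternatives used DESeq2 1.42.0, total-count scaling, no filter, a replicate block, loess offsets (span 0.3) and each library left out. The chi-square per degree of freedom between libraries of a group was 2.61 to 7.21, and all were counted as separate samples. That value cannot tell libraries of separate cultures from separate libraries of the same culture.

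The members and lists were chosen with earlier results of these data known. Named genes are Ltn1, members past the threshold, the 12 members with the smallest p, the 2 most abundant per family, the 4 pathway genes with the smallest p and the members left out of the test; others named were chosen after their values were seen. The overlapping genes named here were read from a RefSeq table (GRCm38.p6). A planned level per coding length was not run, so levels are not compared between genes.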

Additional observations from a re-analysis of the deposited data

How the results depend on the processing

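Ltn1 was called in all 12 alternatives. The count of genes past the threshold was 23, and 96 with DESeq2, 42 with total counts (8 higher, 34 lower, against 11 and 12), 222 without the filter and 4 to 333 with a library left out, the highest without sgLTN1 library 3. Without the 2 libraries highest in olfactory receptor counts (sgLTN1 3 and sgNT 1, chosen after seeing the data) it was 250. The members called numbered 2 with DESeq2, total counts or no filter (Ntn1 and Sema3g), 0 to 3 with a library left out, and 3 without the 2 libraries (Ephb2 at -1.43, Ntn1, Sema3g). The 2 libraries left out held the highest Ephb2 value of each group (98.2 CPM in sgLTN1 3 and 63.7 CPM in sgNT 1). The choice of libraries thus tracks Ephb2 itself, and that fit cannot test it. Members higher at an unadjusted p under 0.05 were 1 with total counts, 8 without the filter, 2 with loess offsets, 1 to 8 with a library left out and 10 without the 2 libraries, where the shares of all tested genes were, in that order, 3.50%, 6.36%, 7.33%, 5.17% to 9.78% and 10.6%. Those lower were 2 with DESeq2, 8 with total counts and 3 to 9 with a library left out, beside, in that order, 3.11%, 13.4% and 4.35% to 9.02% of all tested genes. All 72 members were fitted without the filter. Fits with libraries left out applied the filter anew, so the number of members tested can differ from 54. Of the 54 members, 3 lay higher and 5 lower without overlap with total counts, beside 5.09% and 16.4% of all tested genes. Without the 2 libraries, where 4 libraries remain, 22 of the 54 lay higher and 12 lower without overlap. The shares of all tested genes there were 24.2% and 27.3%. The members' median was -0.03 with total counts, -0.00 without the 2 libraries and 0.02 to 0.04 with a library left out.

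The values did not settle if the replicate numbers pair the libraries. Same-number deviations from the group means correlated at -0.0456, 0.225 and 0.252 over 5830 genes. Libraries sgLTN1 2 and sgLTN1 3 correlated best with their own number, while sgLTN1 1 did so with sgNT 2 (0.217). With 3 libraries a group these deviations are tied to each other, so the correlations cannot decide on pairing. With the replicate block 609 of 12782 genes, 4 members (Ntn1, Sema3g, Plxnb2, Neo1) and 2 pathway genes (Mical3, Dpysl2) were called. At an unadjusted p under 0.05 in that fit, 7 members were higher and 7 lower, beside 10.4% and 8.69% of all tested genes.

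Of 36 named genes 26 kept their sign throughout. Signs turned with total counts for Epha5 (-0.03), Efna1 (-0.04) and Nrp2 (-0.02), and for Ntn4 with DESeq2 (0.00), no filter (0.02) and the replicate block (0.01). Sema3c was at 0.01 without the 2 libraries. With each library left out in turn, the log2 fold change ran between -0.02 and 0.12 for Epha5, -0.02 and 0.12 for Efna1, -0.09 and 0.19 for Nrp2, -0.09 and 0.16 for Ntn4, -0.06 and 0.01 for Sema3c, -0.26 and 0.11 for Efnb2, -0.24 and 0.04 for Ntn3, -1.88 and 0.39 for Ephb2, and -0.08 and 2.66 for Flrt2. Slit1 passed the filter in 3 of the 6 such fits, which gave -0.04 to 0.42. The cause was not tested. Members under 4 CPM rest on few counts.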

Other observations

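Outside the guidance genes, 2 islet hormone genes had higher values with sgLTN1 in groups that did not overlap, though neither passed the threshold. Sst (somatostatin) had 40.5, 42.0 and 47.5 CPM with sgLTN1 and 28.9, 30.6 and 31.7 CPM with sgNT (log2 fold change 0.50, SE 0.09, adjusted p = 0.0620, edgeR's quasi-likelihood test). Ppy (pancreatic polypeptide) had 4.97, 6.95 and 6.37 CPM with sgLTN1 and 2.06, 3.96 and 3.88 CPM with sgNT (0.82, SE 0.26, adjusted p = 0.176). Gcg (glucagon) overlapped between the groups (0.01, SE 0.06).

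The vomeronasal receptor genes, of which 18 were tested among 354 listed, summed to 132, 143 and 211 CPM with sgLTN1 and 198, 170.1 and 192 CPM with sgNT. The order of the libraries by this sum was that of the olfactory receptor sums.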
